A study of Oryza sativa with 16 samples.

Results

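The regions described here are all 99518 open chromatin peaks of unstressed rice seedlings, out of 695463 peaks in the 7 FAIRE-seq lists of the study. They were taken as a whole list and no peak was left out. The seedlings were of the Japonica cultivar Nipponbare, were 14 days old and grew at 28 °C, and they serve as the control for seedlings under abiotic stress. The labels name seedlings as the source and no single tissue or cell type. The 2 control FAIRE-seq libraries are represented by a single peak list. No value below therefore has a replicate error, chromosomes and windows of 1 list are not replicates of each other, and no test was run. The comparisons are given as values, and as the number of the 12 chromosomes on which they go the same way. The read depth behind a peak is not in the list and was not used here.

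In FAIRE-seq, chromatin is fixed with formaldehyde and sheared, and the DNA left free of protein after phenol extraction is sequenced, so that stretches poor in nucleosomes gain reads. In plants, such stretches are found mostly at promoters and at distal regulatory elements, and genes are unevenly spread along a chromosome. Rice centromeres hold arrays of the CentO satellite and CRR retrotransposons, and the chromatin to each side of them is rich in other repeats and in heterochromatin. The short arms of chromosomes 4 and 10 are known from cytology to be largely heterochromatic, while the centromere of chromosome 8 is known for active genes within its core. The authors removed reads with a mapping score under 10 and reads at known insertions of organelle DNA, so a repeat that reads cannot be placed in holds no peak, whatever its chromatin state. A closed region and one that reads cannot be mapped to therefore cannot be told apart in any of the following results.

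Over the 12 chromosomes, measured from the first base to the end of the last peak, the peaks covered 82.8 of 373 Mb, or 22.2% of the bases, at a density of 267 peaks per Mb. The median peak was 649 bp wide, with quartiles of 357 and 1100 bp and a range of 200 to 5881 bp. The median spacing, the number of bases between the end of a peak and the start of the next, was 1764 bp, with quartiles of 887 and 3398 bp. Most peaks thus had a neighbour within a few kilobases. Spacing had a longer upper tail than width. The 99th percentile of spacing was 19274 bp and the longest stretch without a peak was 303273 bp, whereas the 99th percentile of width was 3005 bp. No spacing was shorter than 401 bp and no peak narrower than 200 bp, which are the smallest values that the list holds. The fold enrichment, the value the authors' peak caller gave to each peak, had a median of 2.38, quartiles of 2.03 and 2.84 and a range of 1.27 to 8.92.

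Chromosome 3 was the richest in open chromatin and chromosomes 11 and 12 were the poorest. Chromosome 3 had 302 peaks per Mb and 26.0% of its bases inside peaks, and its peaks had the largest median width of the 12 chromosomes, 683 bp. Chromosome 12 had 228 peaks per Mb, a covered share of 17.8% and the smallest median width, 597 bp. Chromosome 11 was close to it, with 237 peaks per Mb, 18.5% and 606 bp. The other 9 chromosomes lay between 255 peaks per Mb on chromosome 4 and 283 on chromosome 2. By density, the chromosomes stood in nearly the reverse of their order by the share of bases in peak-free stretches of 20 kb or more. Spearman's rho was -0.923 over 12 chromosomes of 1 list. Such stretches hold no peak, so a larger share of them lowers the density by itself. That share was 2.23% on chromosome 3, 13.5% on chromosome 4, 16.7% on chromosome 11 and 19.8% on chromosome 12. Chromosome 4 therefore stood with the poor chromosomes by its long empty stretches, but its median width of 663 bp was among the larger ones. The fold enrichment moved less than the density: its median was lowest on chromosome 4, at 2.33, and highest on chromosome 12, at 2.42.

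Along the chromosomes, peak density was moderately uneven. Peaks were counted by their midpoint in 373 windows of 1 Mb. The windows held 103 to 354 peaks per Mb, with a median of 277 and quartiles of 242 and 298, so that the low end of the distribution lay farther from the median than the high end. The coefficient of variation over windows was 17.2%. The covered share ranged from 7.54 to 31.4% with a median of 22.8%. The median width of a window's peaks lay between 472.5 and 851.5 bp, and the median fold enrichment between 2.13 and 2.64. Across windows, density went with the covered share (Spearman's rho of 0.898), less with the median width (0.368), and against the number of stretches of 20 kb or more (-0.840). The windows come from 1 list, their counts share the same peaks, and neighbours resemble each other. The correlation of a window's density with that of the next window was 0.492, and it was 0.379 at a distance of 2 Mb, 0.258 at 5 Mb and 0.0999 at 10 Mb. The median fold enrichment had a shorter reach, with 0.390 for the next window, 0.243 at 2 Mb and -0.0205 at 5 Mb.

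**Figure D1:**
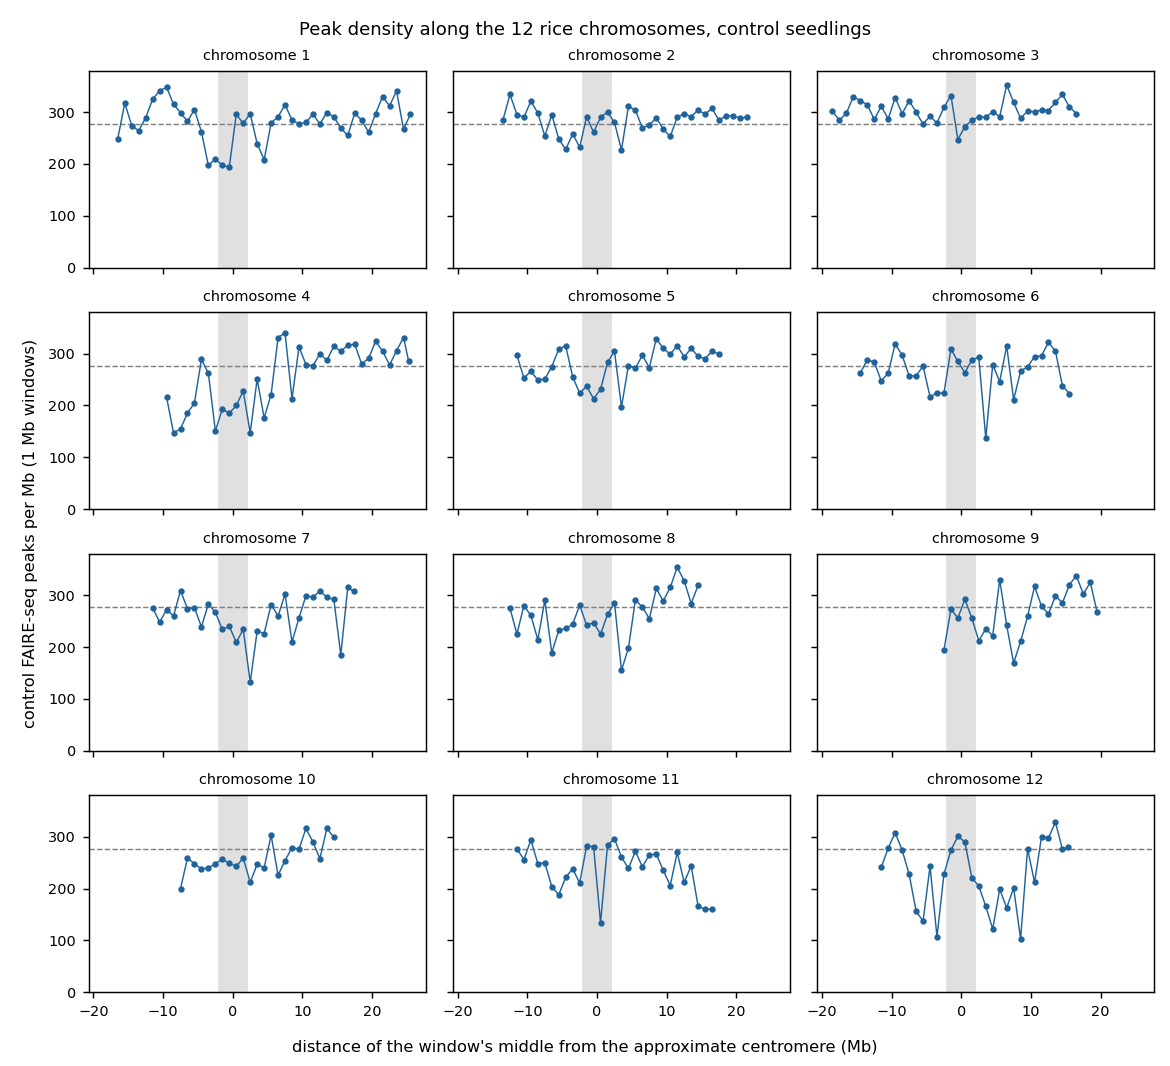
Control FAIRE-seq peaks per Mb (vertical axis) in 1 Mb windows, plotted against the distance of the window's middle from the approximate centromere in Mb (horizontal axis), with 1 panel per chromosome. Each point is a window, the grey band reaches 2 Mb to each side of the centromere, and the dashed line is the median of all windows, 277. Chromosome 3 stays between 247 and 352, while chromosome 12 has its lowest windows to both sides of the grey band, down to 103.

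Chromosomes differed in how even this landscape was. Chromosome 3 had the most even one, with windows of 247 to 352 peaks per Mb and a coefficient of variation of 6.75%. Chromosome 12 had the least even one, with 103 to 328 and 28.5%. On chromosome 12 the poor windows were not at the centromere but to both sides of it. The windows at chr12:8000001-9000000 and chr12:16000001-17000000 held 107 and 122 peaks per Mb, whereas chr12:11000001-12000000, beside the approximate centromere, held 301. These 3 windows were picked after their values had been seen. Chromosome 4 came second in unevenness, with a coefficient of variation of 23.7%. Its windows held 147 to 340 peaks per Mb. Its short arm was poorer than its long arm as a whole, but the 2 windows tied at 147 lay in different arms.

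The window with the fewest peaks was found on each chromosome, and the 5 lowest of these 12 windows were on chromosomes 12, 7, 11, 6 and 4. On chromosome 12 it was chr12:20000001-21000000, with 103 peaks per Mb and 7.98% of its bases covered. Next came chr7:14000001-15000000 with 132, chr11:12000001-13000000 with 134, chr6:18000001-19000000 with 137 and chr4:1000001-2000000 with 147 peaks per Mb. On chromosome 4, chr4:12000001-13000000 tied with it at 147 and had the lower covered share, 11.4% against 11.7%. Of these windows, only the window on chromosome 11 was within 2 Mb of the approximate centromere. The poorest windows of the other chromosomes were less extreme. The 5 highest of the 12 minima were 247 on chromosome 3, 227 on chromosome 2, 200 on chromosome 10, 197 on chromosome 5 and 194 on chromosome 1. Those of chromosomes 1 and 3 were beside the approximate centromere, and that of chromosome 10 was the first Mb of its heterochromatic short arm.

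The window with the most peaks of all was chr8:24000001-25000000, with 354 peaks per Mb and 30.1% of its bases covered. It was followed by chr3:25000001-26000000 with 352, chr1:7000001-8000000 with 348, chr4:17000001-18000000 with 340 and chr9:19000001-20000000 with 338 peaks per Mb. All 5 were 6.5 Mb or more from the approximate centromere. The maxima of the chromosomes spanned a narrower range than the minima, and the 5 lowest maxima were 296 on chromosome 11, 315 on chromosome 7, 316 on chromosome 10, 322 on chromosome 6 and 328 on chromosome 12. Chromosome 12 thus had a richest window close to those of other chromosomes and the poorest window of all.

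The 37 windows with the fewest peaks, 103 to 204 per Mb, were concentrated on few chromosomes. Chromosomes 4 and 12 had 9 of them each and chromosome 11 had 6, while chromosomes 2 and 3 had 0. Of the 37 windows, 6 were within 2 Mb of the approximate centromere, 13 at 2 to 5 Mb, 14 at 5 to 12 Mb and 4 farther out. Of all 373 windows, 48, 70, 155 and 100 lay at these distances. Windows at 2 to 5 Mb thus made up 35.1% of the 37 poorest, against 18.8% of all windows. In these windows the peaks had a median width of 590 bp and a median spacing of 2165 bp, and 276 of the stretches of 20 kb or more fell in them. The 37 windows with the most peaks, 316 to 354 per Mb, included 9 windows of chromosome 3 and 6 each of chromosomes 1 and 4. Only 1 of them was within 2 Mb of the centromere and 0 were at 2 to 5 Mb. Their peaks had a median width of 653 bp, a median spacing of 1567 bp and 12 stretches of 20 kb or more.

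The next comparison was between the centromeric zone and the arms. The zone reached 2 Mb to each side of an approximate centromere position, so it measured 48 Mb, or 12.9% of the genome, and held 12203 peaks. The arms measured 325 Mb and held 87315 peaks. The positions are general knowledge of the Nipponbare map, rounded to whole Mb, and do not come from the peak list. The zone was not a desert of open chromatin. It had 254 peaks per Mb and 21.0% of its bases covered, against 269 peaks per Mb and 22.4% in the arms, and the ratio of zone to arms was 0.946 for the density and 0.941 for the covered share. Density was lower in the zone than in the arms as a whole on 7 chromosomes and higher on 5, so this direction was not shared by the chromosomes. The ratio ran between 0.769 on chromosome 4 and 1.23 on chromosome 12. Chromosome 12 had 271.5 peaks per Mb in the zone and 221 in the arms.

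Width and spacing differed little between the zone and the arms. Peaks had a median width of 632 bp in the zone and 650 bp in the arms, and were narrower in the zone on 9 of 12 chromosomes. The median spacing was 1723 bp in the zone and 1771 bp in the arms, and was shorter in the zone on 9 of 12. This small difference disappeared when peaks with a −log10 q under 2 were left out, where the ratio of zone to arms was 1.00. With the chromosomes pooled, long empty stretches were denser in the zone. It had 3.21 stretches of 20 kb or more per Mb and the arms 2.38. The value was higher in the zone on 7 of 12 chromosomes, so this direction was not shared by the chromosomes. Such stretches were denser still in the arms next to the zone, with 3.79 per Mb at 2 to 3 Mb from the centromere and 4.00 at 3 to 5 Mb. The coefficient of variation of the spacing was 1.92 in the zone and 1.71 in the arms, and was higher in the zone on 10 of 12.

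Of density, covered share, width, spacing and fold enrichment, only the fold enrichment differed in the same direction on every chromosome. On chromosomes 1 and 9 the difference was very small, with a ratio of 0.991 on chromosome 9. Its median was 2.27 in the zone, with quartiles of 1.96 and 2.71, and 2.39 in the arms, with quartiles of 2.04 and 2.86. The zone had the lower median on 12 of 12 chromosomes. The ratio of zone to arms was 0.914 on chromosome 11, where the medians were 2.22 in the zone and 2.43 in the arms, and 0.994 on chromosome 1, where they were 2.36 in the zone and 2.37 in the arms. The 2 distributions overlap broadly, since their quartiles span nearly the same values. Across the 1 Mb windows, median fold enrichment went with the median spacing (Spearman's rho of 0.484). It went against the share of peaks of 2000 bp or more (-0.434). How far the spacing and width of neighbouring peaks bear on the zone's lower value was not tested. Of the 20000 peaks of highest fold enrichment in the list, which start at 2.97, the zone had fewer than its share. They made up 16.0% of the peaks in the zone and 20.7% of those in the arms, with a lower share in the zone on 11 chromosomes and nearly the same share on chromosome 1, 20.7% in the zone and 20.4% in the arms. Per Mb, there were 40.6 of these strong peaks in the zone and 55.5 in the arms, a ratio of 0.731 when they were counted alone. This density was lower in the zone on 12 of 12 chromosomes. The strong peaks were chosen by their fold enrichment, so their share and density are not independent of the lower median in the zone.

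**Figure D2:**
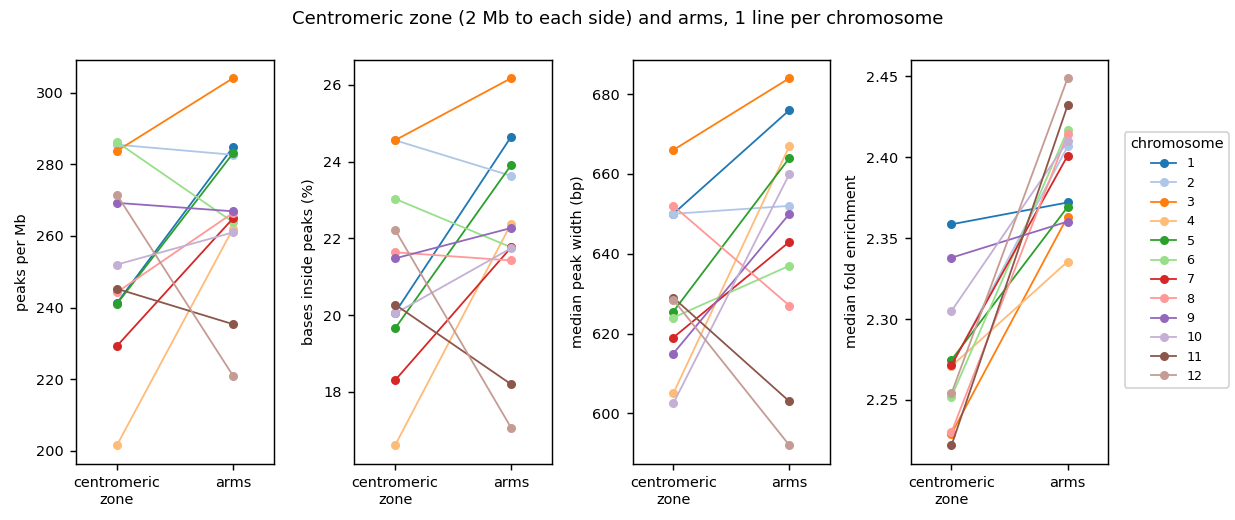
Peaks per Mb, percent of bases inside peaks, median peak width in bp and median fold enrichment (vertical axes, none of which starts at 0) in the centromeric zone and in the arms of each chromosome, with 1 coloured line per chromosome. Lines for density run in both directions, 7 with the lower value in the zone and 5 with the higher, while all 12 lines for fold enrichment have the lower value in the zone.

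Broad peaks, those of 2000 bp or more, made up 6.46% of the peaks in the zone and 5.91% of those in the arms, with a higher share in the zone on 7 of 12 chromosomes. The difference was largest on chromosome 8, with 9.52% in the zone and 5.30% in the arms. Active genes are known from the centromere of chromosome 8, but whether they are linked to this share was not tested. Among the widest peaks of the 12 chromosomes, that of chromosome 8 was nearest to an approximate centromere. That peak, chr8:12562735-12568567, was 5833 bp wide with a fold enrichment of 1.87, at 0.434 Mb from the approximate position. Chromosome 11 had the next largest ratio of zone to arms in the share of broad peaks, 1.56, followed by chromosome 2 with 1.30. Whether the broad peaks of the zone cover genes was not tested, since no annotation of this build was used.

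Distance from the centromere gave a finer view than the zone. In the bins of 0 to 1, 1 to 2, 2 to 3, 3 to 5, 5 to 8, 8 to 12 and over 12 Mb, the density was 246, 262, 239, 235, 260, 277 and 290 peaks per Mb. The 4 bins within 5 Mb were thus below the 267 of the whole list, and the 2 bins beyond 8 Mb were above it. The order of the lowest bins rested on single chromosomes. Without chromosome 12, the density was 241.5 at 0 to 1 Mb, 241 at 2 to 3 Mb and 242 at 3 to 5 Mb, and without chromosome 8 the lowest bin was also that of 2 to 3 Mb. With any of the other 10 chromosomes left out, it was that of 3 to 5 Mb. The covered share was 20.7% at 0 to 1 Mb, 18.8% at 3 to 5 Mb and 24.8% beyond 12 Mb, and 20.4%, 19.5% and 24.8% in these bins without chromosome 12. The median width was 618 bp at 2 to 3 and at 3 to 5 Mb, 640 bp at 0 to 1 Mb and 675 bp beyond 12 Mb. Set against the bin of 8 to 12 Mb, the bin of 3 to 5 Mb had a lower covered share on 12 of 12 chromosomes and a lower density on 11 of 12. Set against the innermost Mb, it had a lower density on 7 of 12 only. The innermost Mb in turn had a lower density than the bin of 8 to 12 Mb on 10 of 12 chromosomes. It was lower than beyond 12 Mb on 11 of 12.

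The innermost bin differed from the others in its fold enrichment. The median fold enrichment was 2.21 at 0 to 1 Mb, 2.33 at 1 to 2 Mb and 2.35 at 2 to 3 Mb, and it lay between 2.38 and 2.41 in the bins farther out. The value at 0 to 1 Mb was lower than that at 8 to 12 Mb on 12 of 12 chromosomes. By chromosome it lay between 2.14 and 2.30 at 0 to 1 Mb, and between 2.32 and 2.49 at 8 to 12 Mb, so the chromosomes' values in the 2 bins did not overlap. The share of peaks among the 20000 of highest fold enrichment was 13.8% in the innermost bin and 21.3% at 8 to 12 Mb. At the same time the innermost peaks were closely spaced by the median, although their density of 246 peaks per Mb was below the 267 of the whole list. Their median spacing of 1669 bp was the shortest of the 7 bins, against 1862 bp at 3 to 5 Mb, and was the shorter of these 2 on 11 of 12 chromosomes. This shorter spacing may depend on weak peaks. For the whole zone, the ratio to the arms was 1.00 without peaks of a −log10 q under 2, and 1.38 among the 20000 strongest. The bin itself was not recomputed in this way. The coefficient of variation of the spacing was also the highest there, 2.29, against 1.39 beyond 12 Mb. Stretches of 20 kb or more were denser there than at 1 to 2 Mb, but not denser than at 2 to 3 or 3 to 5 Mb. They numbered 3.75 per Mb at 0 to 1 Mb, 2.67 at 1 to 2 Mb, 3.79 at 2 to 3 Mb, 4.00 at 3 to 5 Mb and 1.45 beyond 12 Mb.

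**Figure D3:**
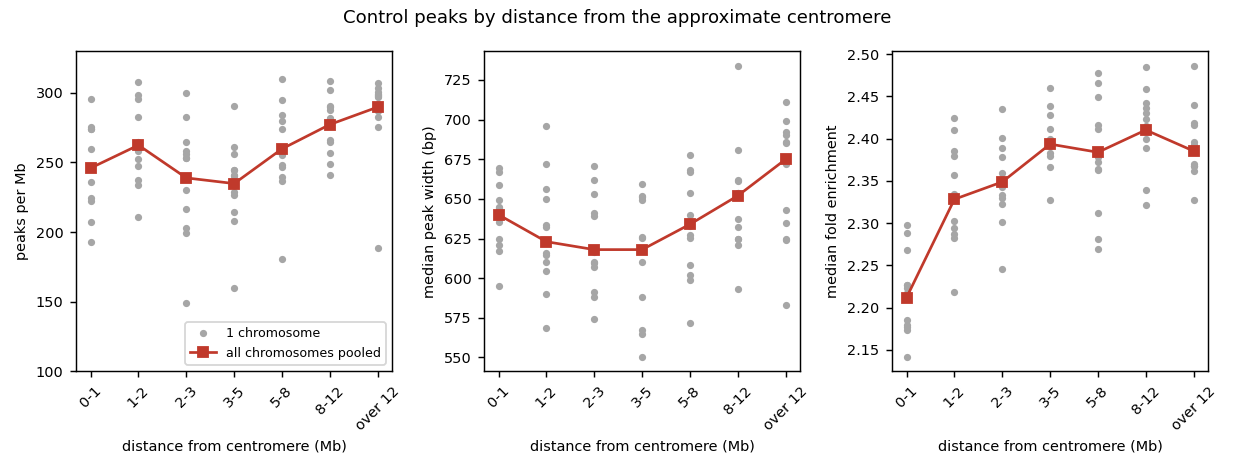
Peaks per Mb, median peak width in bp and median fold enrichment (vertical axes, none of which starts at 0) in 7 bins of distance from the approximate centromere in Mb (horizontal axis). Grey points are single chromosomes and red squares are the 12 chromosomes pooled. Pooled density is 246 at 0 to 1 Mb, 235 at 3 to 5 Mb and 290 beyond 12 Mb, and without chromosome 12 the first 2 of these are 241.5 and 242. Pooled fold enrichment is lowest at 0 to 1 Mb, 2.21, with any chromosome left out as well.

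Ranking the windows by their median fold enrichment arranges the same values in another way and is not independent support for them. Of the 37 windows with the lowest medians, 2.13 to 2.26, 19 were within 2 Mb of the approximate centromere, which is 51.4% of them, against 12.9% of all windows. Of the 37 with the highest medians, 2.51 to 2.64, 0 were within 2 Mb and 23 were at 5 to 12 Mb. The 5 lowest windows, named after their values had been seen, were chr12:11000001-12000000, chr3:19000001-20000000, chr4:17000001-18000000, chr8:13000001-14000000 and chr5:12000001-13000000, with medians of 2.13 to 2.15. Of these, 4 were within 1 Mb of the approximate centromere. The exception, on chromosome 4 at 7.5 Mb from it, was at the same time the window with the most peaks of that chromosome, 340 per Mb.

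The ends of the chromosomes were less distinct than the centromeres. In the bins of 0 to 1, 1 to 2, 2 to 4, 4 to 8 and over 8 Mb from the nearer end, the density was 266, 273, 279, 272 and 260 peaks per Mb. The median fold enrichment was 2.43, 2.42, 2.43, 2.38 and 2.34. The outermost Mb thus had close to the density of the whole list, and a few single ends were poor in peaks. The last Mb of chromosome 11 had 162 peaks per Mb, the first Mb of chromosome 9 had 194, that of chromosome 10 had 200 and that of chromosome 4 had 216. The start of chromosome 9 is known to carry a nucleolus organizer, an array of ribosomal RNA genes. Its first Mb also lies 2 to 3 Mb from the approximate centromere, a bin with 239 peaks per Mb over all chromosomes. Neither was tested as a reason for the low density of this end. The highest density of a terminal Mb was 312, at the end of chromosome 7.

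Short arms were poorer in open chromatin than long arms on most chromosomes. Outside the centromeric zone, short arms had 261 peaks per Mb and 21.1% of their bases covered, and long arms had 273 peaks per Mb and 23.1%. Density was lower in the short arm on 8 of 12 chromosomes and the covered share on 10 of 12. Peaks were also narrower, with a median of 633 bp in short arms and 661 bp in long arms. Long arms reach farther from the centromere, and density was 290 peaks per Mb beyond 12 Mb against 235 at 3 to 5 Mb. Whether the arms differ at equal distance from the centromere was not tested. The largest contrast was on chromosome 4, with 201 peaks per Mb in its short arm and 283 in its long arm, and the covered share there was 16.5% in the short arm and 24.4% in the long arm. The short arm of chromosome 10, the other one known to be heterochromatic, had 239 peaks per Mb, against 271 in its long arm. The short arm of chromosome 9 had 194 peaks per Mb, against 271 in its long arm, but only 1 Mb of it lies outside the zone. On chromosome 12 the 2 arms were alike, with 220 peaks per Mb in the short arm and 222 in the long arm. Fold enrichment went the other way from density. Its median was 2.42 in short arms and 2.37 in long arms, and was higher in the short arm on 10 of 12 chromosomes. Among the 20000 strongest peaks alone, the density was also the higher one in short arms, with a ratio of short to long arm of 1.06. It was lower in the short arm on 3 of 12 chromosomes. These peaks were chosen by fold enrichment, so this is not independent of the higher median.

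Within chromosome 4, the short arm was not poor throughout. The windows chr4:1000001-2000000, chr4:2000001-3000000 and chr4:3000001-4000000 had 147, 155 and 185 peaks per Mb. In the same arm, chr4:5000001-6000000 had 289 and chr4:6000001-7000000 had 262. These are close to the 283 peaks per Mb of the long arm as a whole. These 5 windows were picked after their values had been seen. The peak of highest fold enrichment in the whole list, at 8.92, also lay in this arm, at chr4:3231025-3232012, inside one of its poorer windows.

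Stretches without a peak were few but long. Of 99506 spacings, 928 were of 20 kb or more. They made up 0.933% of the spacings and took 36.4 Mb, or 9.75% of the extent of the chromosomes. Of these, 174 were of 50 kb or more and 30 of 100 kb or more. The centromeric zone, 12.9% of the genome, had 154 of the 928 stretches, or 16.6%, which is more than its share of the bases. Most long stretches still lay in the arms, which are by far the larger part of the genome. By chromosome, their number was 27 on chromosome 3, 112 on chromosome 4, 118 on chromosome 11 and 121 on chromosome 12.

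The longest stretch of each chromosome was compared next. The 5 longest of the 12 were chr4:15549321-15852593 with 303273 bp, chr11:12308458-12553760 with 245303 bp, chr12:8261207-8468799 with 207593 bp, chr6:18624547-18780326 with 155780 bp and chr9:2730493-2876711 with 146219 bp. The 5 shortest of the 12 were chr5:15312285-15405852 with 93568 bp, chr2:13607423-13702980 with 95558 bp, chr3:24070079-24166100 with 96022 bp, chr8:13243554-13350658 with 107105 bp and chr1:41399061-41533725 with 134665 bp. Of the 12, 5 were within 1 Mb of the approximate centromere, on chromosomes 2, 7, 8, 9 and 11. Over all chromosomes, this distance takes in 24 of 373 Mb and 90 of the 928 stretches of 20 kb or more. On chromosome 7 the stretch chr7:11969725-12113744, of 144020 bp, spanned the approximate position itself. The others were in the arms, and that of chromosome 1 was 24.4 Mb away from the centromere. Whether a stretch without a peak is a gap of the assembly, a repeat without placed reads or closed chromatin cannot be told apart from the list.

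**Figure D4:**
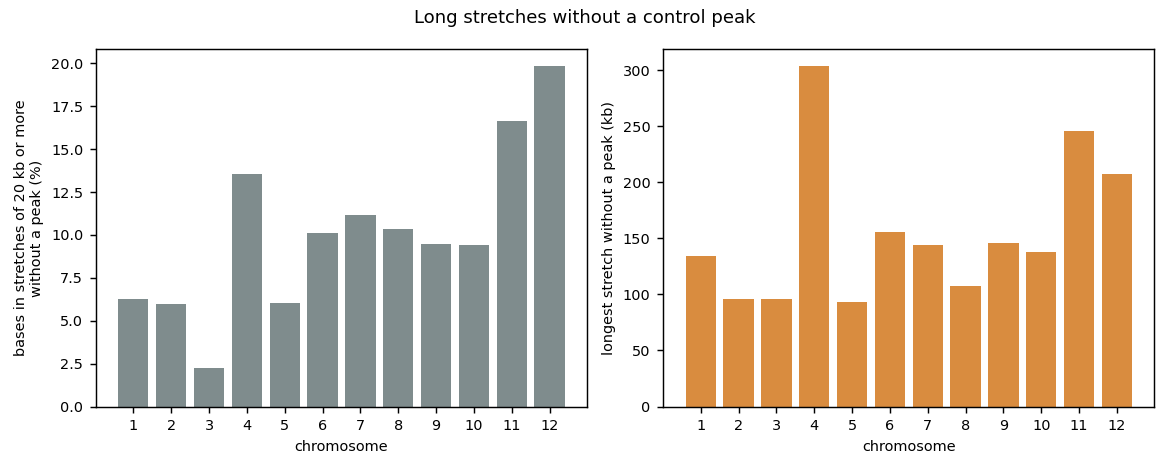
Left, percent of each chromosome's bases in stretches of 20 kb or more without a peak; right, the longest such stretch of each chromosome in kb, with 1 bar per chromosome (horizontal axes). The left bars run between 2.23% on chromosome 3 and 19.8% on chromosome 12, and the tallest right bar is chromosome 4 with 303 kb.

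Peaks that bordered the long stretches differed slightly from the rest. The 1743 peaks beside a stretch of 20 kb or more had a median width of 543 bp and a median fold enrichment of 2.49, against 650 bp and 2.37 for the other 97775 peaks. They were narrower on 12 of 12 chromosomes and had the higher fold enrichment on 11 of 12. On chromosome 12, the peak of highest fold enrichment, chr12:20542322-20543514 with 6.94, directly followed a stretch of 140820 bp without a peak.

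At short range, peaks were grouped into runs by their spacing. Whether they fall into runs more often than peaks placed at random was not tested. With peaks less than 1000 bp apart taken as a run, 50113 peaks, or 50.4%, fell into 21160 runs of at least 2 peaks, and 49405 stood alone. Most runs were short: 15250 had 2 peaks, 4455 had 3, and 1752 peaks in all belonged to runs of 5 or more. The longest runs had 8 peaks, and there were 4 of them, at chr1:37739741-37749654, chr3:11579106-11586452, chr3:30341719-30353704 and chr4:6368199-6376927. They spanned 7347 to 11986 bp, of which 44.4 to 52.9% lay inside peaks, and no peak in them had a fold enrichment above 2.72. These runs were named for their length after it had been seen. Spacings under 1000 bp made up 30.2% of the spacings in the centromeric zone and 28.9% in the arms, with the higher share in the zone on 9 of 12 chromosomes.

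Width and fold enrichment were related, but not in a straight line. Peaks under 400 bp were 29.3% of the list and took 9.96% of the covered bases, while peaks of 1200 to 2000 bp were 15.6% of the list and took 28.5%. The median fold enrichment was 2.19 in peaks under 400 bp, 2.42 at 400 to 800 bp, 2.55 both at 800 to 1200 bp and at 1200 to 2000 bp, 2.41 at 2000 to 3000 bp and 2.13 at 3000 bp or more. Peaks of middle width thus had the highest values, and both the narrowest and the broadest had lower ones. The list does not say how the value of a peak is formed over its width. A relation that comes from this calculation therefore cannot be told apart from one in the chromatin. Of the peaks of 800 to 1200 bp, 28.3% were among the 20000 of highest fold enrichment, against 9.35% of those under 400 bp and 1.89% of the 1007 peaks of 3000 bp or more. The lower fold enrichment of the centromeric zone was present in each of the 6 width classes. At 800 to 1200 bp the median was 2.42 in the zone and 2.57 in the arms, and under 400 bp it was 2.13 in the zone and 2.20 in the arms.

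**Figure D5:**
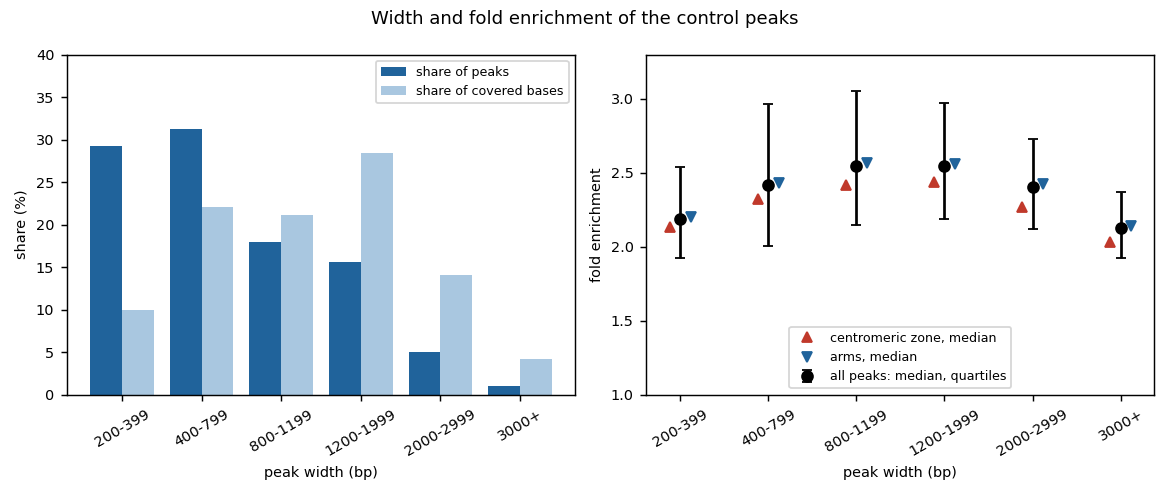
Left, share of all peaks and share of covered bases in 6 classes of peak width in bp (horizontal axis). Right, fold enrichment in the same classes, with the median in the centromeric zone, the median in the arms, and the median and quartiles of all peaks (the axis starts at 1). Fold enrichment is highest at middle widths, 2.55, and the zone has the lower median in each class.

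The extreme peaks followed the same relation. The 5 highest of the chromosomes' strongest peaks were chr4:3231025-3232012 with a fold enrichment of 8.92, chr10:12442908-12443611 with 8.44, chr6:11799658-11800722 with 8.33, chr8:8199295-8200057 with 7.40 and chr2:3807808-3808403 with 7.15. The 5 lowest were chr9:12460226-12460848 with 5.65, chr7:35931-36833 with 5.89, chr11:25285386-25286041 with 6.15, chr1:8110485-8111155 with 6.46 and chr3:13386991-13388036 with 6.83. All 12 strongest peaks were 596 to 1193 bp wide, and the nearest to an approximate centromere was at 3.20 Mb from it. The 5 widest of the chromosomes' widest peaks were chr5:4500176-4506056 with 5881 bp, chr8:12562735-12568567 with 5833 bp, chr7:2502229-2508047 with 5819 bp, chr4:26862522-26868134 with 5613 bp and chr12:22603339-22608931 with 5593 bp. The 5 narrowest of them were chr11:6193797-6198330 with 4534 bp, chr9:1836996-1841622 with 4627 bp, chr1:35390964-35396096 with 5133 bp, chr3:13478774-13484074 with 5301 bp and chr6:26478736-26484176 with 5441 bp. Their fold enrichment was 1.43 to 2.04 over the 12 peaks, below the median of the list, so none of the widest peaks was among the strong ones.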

How the data were processed

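FAIRE-seq reads of 2 control libraries were aligned by the authors to IRGSP 1.0 with Bowtie2. Duplicates, poorly mapped reads (score under 10) and those at known organelle insertions were removed, and broad peaks were called with MACS2. The methods state that peaks under 1 RPM (read count scaled to the library) in any replicate were dropped, and how the replicates were combined is not given in the sources used here. The deposited list holds positions, a fold enrichment (a ratio) and a −log10 q for each peak, which are the authors' values, and the lowest −log10 q was 1.02.

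From the positions, density, covered share, width and spacing were computed per chromosome and in 1 Mb windows from base 1. A last window under 500 kb was dropped. Chromosome lengths were taken as the end of the last peak. The centromeric zone was 2 Mb to each side of a rounded map position. On each chromosome the windows with most and fewest peaks, the longest spacing, the widest peak and the peak of highest fold enrichment were found, and the highest and lowest 5 of each were named. The regions and this rule were chosen with earlier results of these data known. Covered bases were equal to those of bedtools 2.31.1 in 373 of 373 windows. The functions were tested on 4000 simulated peaks and recovered 9 of 9 known quantities. Alternatives were a limit on −log10 q, the strongest peaks, joined peaks, other windows and other zones. The scripts ran in Python 3.11.15 with scipy 1.17.1, numpy 2.4.6 and, for figures, matplotlib 3.10.9. The 6 stress lists were not analysed here, and no gene is named because no annotation of this build was used.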

Additional observations from a re-analysis of the deposited data

How the results depend on the processing

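Of 119 levels and ratios recomputed under another setting, 87 moved by less than their spread over chromosomes or windows, 24 by more, and 8 changed direction. The 59 counts of chromosomes have no spread, and 49 of them stayed within 1.5 times their value. The levels and ratios run with zones of 1 or 3 Mb to each side, with peaks counted at their start or without chromosomes 4 and 10 moved by less than their spread, as did those without chromosome 12, which was chosen after seeing the data, like leaving out each chromosome for the distance bins. Counts shifted more: with 1 Mb to each side, density was lower in the zone on 9 of 12 chromosomes and peaks were narrower on 6 of 12.

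With only the 20000 peaks of highest fold enrichment, the list had 53.6 peaks per Mb, a covered share of 4.74%, a median width of 773 bp, a median spacing of 10217 bp and a median fold enrichment of 3.35. Windows then had 17 to 90 peaks per Mb (median 54) and covered shares of 1.44 to 8.55% (median 4.81%). The ratio of zone to arms became 0.731 for density and 0.712 for covered share, each lower in the zone on 12 of 12 chromosomes, 1.38 for spacing, shorter in the zone on 0 of 12, and 1.00 for fold enrichment, which this limit itself truncates. As the peaks were chosen by fold enrichment, these ratios are not independent of the lower fold enrichment in the zone. The ratio of short to long arm became 1.06 for density, lower on 3 of 12, 1.01 for covered share, 0.962 for spacing, shorter on 7 of 12, and fold enrichment was lower in the short arm on 5 of 12.

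Without the peaks whose −log10 q was under 2, the median spacing was 1859 bp, the median fold enrichment 2.40 and the ratio of zone to arms in spacing 1.00, shorter in the zone on 6 of 12 chromosomes. With peaks closer than 500 bp joined, the median width was 701 bp, the spacing 1924 bp and the fold enrichment 2.41. The poorest window had 54 peaks per Mb at 500 kb and 160.5 at 2 Mb. With stretches of 20 kb or more left out of the length, chosen after seeing the data, the density was 296 peaks per Mb and the covered share 24.6%, and the lowest covered share of a window was 15.6%.

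A zone centred on the 3 Mb with the fewest peaks was chosen on the readout. Its ratio to the arms was 0.805 for density, and density and covered share were lower on 12 of 12 chromosomes by construction. Spacing had a ratio of 1.11, shorter in the zone on 0 of 12, and fold enrichment one of 1.00, lower on 3 of 12. Its centre was within 2 Mb of the approximate centromere on 3 of 12 chromosomes.

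No paired analysis was possible because both replicates are in 1 list. The list gives no replicate error and no read depth, centromere positions are approximate to the Mb, and unmapped repeats cannot be told apart from closed chromatin.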
